A study of Mus musculus with 2 samples.

Results

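The genes described here are 8 members of the insulin-like growth factor (IGF) system: the ligand Igf1, the binding proteins Igfbp2, Igfbp3, Igfbp4, Igfbp5, Igfbp6 and Igfbp7, and the receptor Igf1r. They were chosen by symbol, each symbol matched 1 row of the count tables, and they are 8 of 32285 genes. They were followed across the cell types of mouse dorsal skin on postnatal day 3 in 2 single-cell RNA libraries. The control library has the genotype Wildtype and the other the genotype miR-200b induced, and both carry the treatment label Dox. The labels give neither the construct or promoter behind the induction nor the strain and number of the animals. Epidermal and dermal suspensions were combined at 30 to 70 before loading, so the share of dermal cells was set by hand. Each genotype is 1 library, so no test between genotypes was possible, and every interval below covers counting error only.

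IGF1 binds the receptor tyrosine kinase encoded by Igf1r, which signals through insulin receptor substrates, PI3-kinase and AKT to growth and survival. IGF-binding proteins hold the ligand outside the cell, and depending on the protein and its cleavage they keep IGF from the receptor or carry it there. In skin the ligand is known to come mainly from dermal cells, while keratinocytes carry the receptor. MicroRNAs of the miR-200 family repress messenger RNAs that carry matches to their seed in the 3′ untranslated region (UTR).

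The mature sequences of the induced microRNA and of the other members of its cluster are shown because a match to their seeds is what can be looked for in the IGF genes. Capitals mark the seed, bases 2 to 8 of 22, and the sequences are RefSeq's for GRCm38.p6.
mmu-miR-200b-3p: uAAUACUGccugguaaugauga
mmu-miR-200a-3p: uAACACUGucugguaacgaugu
mmu-miR-429-3p: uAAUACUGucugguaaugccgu
miR-200b and miR-429 share a seed, and miR-200a has another. miR-200b-3p lies on the minus strand at chr4:156055685-156055706. The matches searched, on the transcript strand of 1 3′ UTR per gene in GENCODE vM21 (GRCm38), were CAGTATT for miR-200b and miR-429 and CAGTGTT for miR-200a. Only 1 match of each was found among the 8 genes, and the 25 bases around them are shown with the match in capitals.
Igfbp6: tactaataaaaCAGTATTggggggg
Igfbp4: ccccacagcgcCAGTGTTtctgttc
The Igfbp6 match starts at base 184 of a 3′ UTR of 209 bases (chr15:102149486-102149492, plus strand). The Igfbp4 match starts at base 1460 of 2813 (chr11:99053039-99053045, plus strand). CAGTATT was absent from the 3′ UTRs of Igf1 (6308 bases), Igfbp2 (312), Igfbp3 (1435), Igfbp4, Igfbp5 (4445), Igfbp7 (240) and Igf1r (7267). Over all genes, 13.3% of 21045 3′ UTRs held CAGTATT and 17.1% held CAGTGTT. Among the 734 3′ UTRs of 5000 to under 10000 bases, the range that holds those of Igf1 and Igf1r, 45.9% held CAGTATT. Among the 10798 under 1000 bases, the range of the Igfbp6 3′ UTR, 3.95% held it. These matches are letters in a window and describe no binding.

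The deposited matrices held 9072 barcodes and 100409201 unique molecular identifiers (UMIs, each standing for 1 captured RNA molecule) in the control library, and 9114 barcodes and 119705137 UMIs in the induced library. Barcodes with at least 1000 UMIs, at least 500 genes and under 15% mitochondrial UMIs numbered 5178 and 5258. After the 7% with the highest doublet scores were removed, 4816 and 4890 cells were kept, with a median of 14584.5 and 17850.5 UMIs. Keratin-rich clusters, called epithelial, held 3955 and 4108 of these cells, and 861 and 782 were not epithelial. Cell classes were rebuilt from marker genes, since the files hold no annotation, and each class name below stands for cells like that type. The 2 libraries lay apart in the epithelium, where 26 of 35 clusters drew 95% or more of their cells from the same library, and less so outside it (4 of 16). Of the cell barcodes, 74 occurred in both libraries, 8 of them in kept cells. Gm13648, a long RNA annotated across the genomic position of the miR-200b cluster, stood at 2.23 CPM (a gene's UMIs scaled to equal totals per class and library) in control and 529 CPM in induced epithelial cells. In fibroblast-like cells it stood at 0 and 16.0 CPM, in dermal papilla-like cells at 0 and 23.3 CPM, and in endothelial-like cells at 0 and 17.7 CPM. Mature microRNAs are not read by this assay.

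The genes differed in the cell classes that supplied their UMIs. Over all kept cells the control and induced libraries held 669 and 613 UMIs of Igf1, 6267 and 7845 of Igfbp2, 2430 and 3541 of Igfbp3, and 16404 and 6497 of Igfbp4. They held 2963 and 797 UMIs of Igfbp5, 173 and 474 of Igfbp6, 8273 and 9528 of Igfbp7, and 3021 and 9240 of Igf1r. Epithelial cells supplied 88.7% and 96.3% of the Igfbp2 UMIs, 88.8% and 71.1% of those of Igfbp4, and 83.3% and 91.5% of those of Igf1r, and they were 82.1% and 84.0% of the cells. Per UMI sequenced, Igf1r was higher outside the epithelium, at 54.4 and 134 CPM against 32.6 and 86.0 CPM. Igfbp4 stood at 198 and 320.3 CPM outside the epithelium and at 189 and 47.0 CPM in it. Of its 1876 induced UMIs outside the epithelium, 1079 came from 25 cells with smooth muscle or dermal sheath markers. Fibroblast-like, endothelial-like and dermal papilla-like cells had lower Igfbp4 levels in the induced library (log2 ratios -0.72, -1.29 and -1.62), and cluster D6 a higher one. Epithelial cells supplied only 1.35% and 11.6% of the Igf1 UMIs, and fibroblast-like cells gave 87.7% and 62.3%. Endothelial-like cells gave 64.9% and 29.9% of the Igfbp7 UMIs and 55.2% and 26.5% of those of Igfbp3. These shares describe 2 hand-mixed suspensions.

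**Figure D1:**
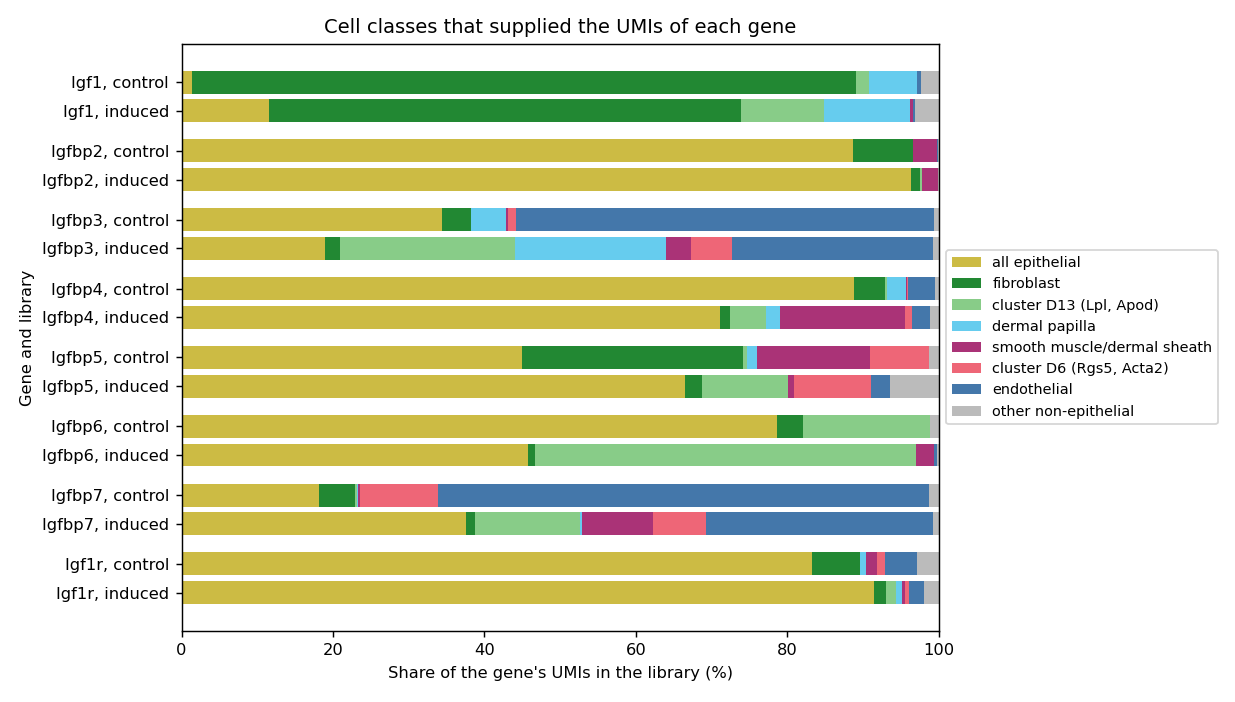
Share of each gene's UMIs, in percent, that each cell class supplied, with the control and the induced library as neighbouring bars. Igf1 came mostly from fibroblast-like cells (87.7% and 62.3%), and Igf1r, Igfbp2 and Igfbp4 came mostly from epithelial cells.

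**Figure D2:**
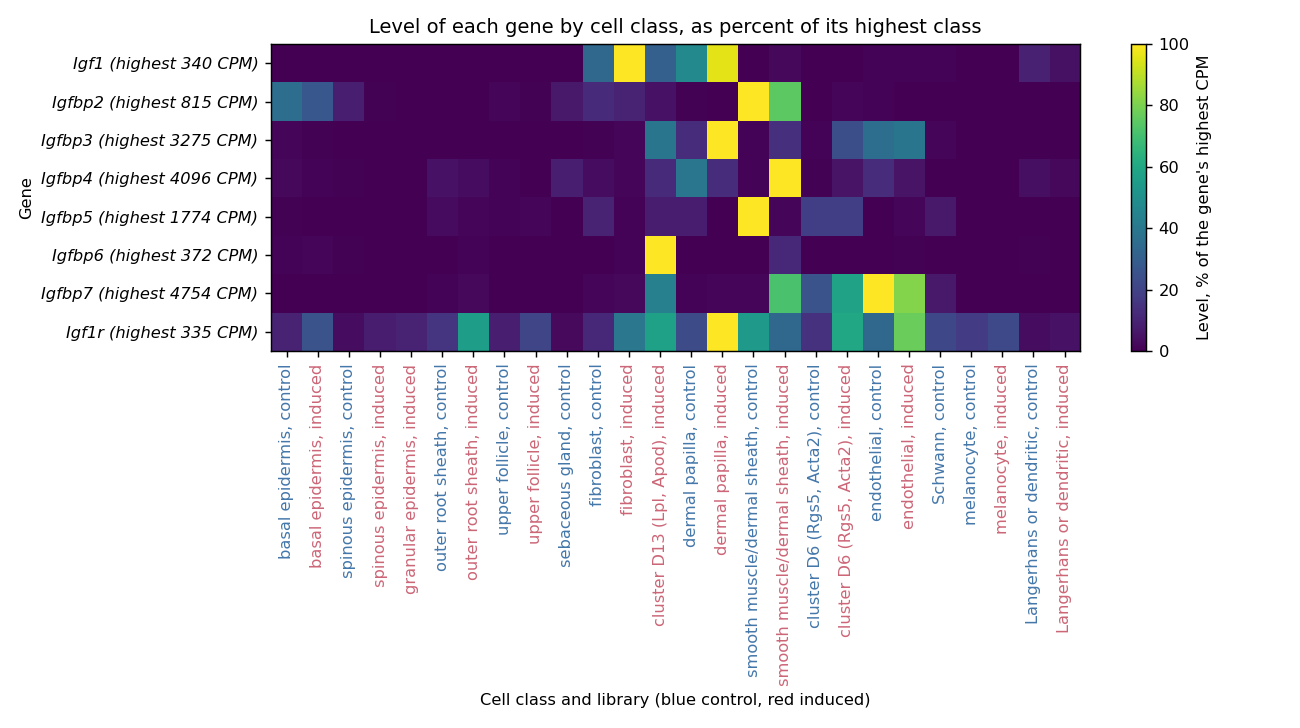
Level of each gene in each cell class and library as a percentage of that gene's highest class, from summed UMIs as CPM. Rows are scaled separately, so levels compare within a gene only. Igfbp7 peaks in endothelial-like cells in both libraries, and Igfbp3 peaks there among control cells and in dermal papilla-like cells among induced cells.

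Among all epithelial cells, 4 of the 8 genes had a mean of at least 20 CPM, the minimum for counting a gene. A gene was counted as higher or lower where log2 of the ratio of (CPM + 5) was at least 1 in size. Igf1r was higher and Igfbp4 lower in the induced library. Of all 5861 genes of that level in epithelial cells, 2.24% were higher and 4.23% lower. In fibroblast-like cells 7 of the 8 were counted. Igf1, Igfbp3 and Igf1r were higher and Igfbp5 lower, against 3.35% higher and 2.38% lower of 6214 genes. The fibroblast-like class leaves out cluster D13 (3 control and 70 induced cells), which had 7 fibroblast markers but no class name. The median log2 ratio of the counted genes was 0.43 in epithelial cells and 0.33 in fibroblast-like cells, and that of all genes was -0.10 and 0.04. Igf1r was the only 1 of the 8 that was counted as higher in both.

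The other classes were counted the same way. Over all non-epithelial cells, where the 8 genes all had the level, Igfbp3, Igfbp6 and Igf1r were higher and Igfbp5 lower, against 4.27% and 3.76% of 6816 genes. In basal epidermis-like cells 4 were counted, Igf1r higher and Igfbp3 and Igfbp4 lower, against 1.98% and 3.63% of 5620 genes. In outer root sheath-like cells 4 were counted and Igf1r was higher, against 2.92% higher and 6.07% lower of 6124 genes. Upper follicle-like cells had 3 counted, Igf1r higher and Igfbp4 lower, against 2.03% and 2.71% of 5459 genes. Spinous epidermis-like cells had only Igfbp2 counted, as lower, against 4.15% higher and 4.97% lower of 4792 genes. The unnamed epithelial clusters had 4 counted, Igfbp7 and Igf1r higher and Igfbp4 lower, against 2.62% and 3.26% of 5912 genes. Igf1r and Igfbp4 thus held the same sides in several epithelial classes, though most of these classes lay in different clusters in each library.

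Among dermal classes, endothelial-like cells had 4 counted, Igf1r higher and Igfbp4 lower, against 4.62% and 8.12% of 6318 genes. Dermal papilla-like cells had 6 counted, Igf1, Igfbp3 and Igf1r higher and Igfbp4 and Igfbp5 lower, where 11.4% and 11.5% of 7060 genes were called. Cluster D6 is led by Rgs5 and Acta2 and had 7 pericyte markers. It has no class name because its leading genes held more markers of another class. D6 had 5 counted, with Igfbp3, Igfbp4, Igfbp7 and Igf1r higher, where 10.1% of 6434 genes were higher and 11.9% lower. In melanocyte-like cells only Igf1r was counted and it was on neither side, where 2.1% and 1.83% of 6052 genes were higher and lower. Langerhans or dendritic-like cells had 2 counted, both on neither side, where 5.14% of 5541 genes were higher and 4.4% lower. The class with smooth muscle or dermal sheath markers had 7 counted, Igfbp3, Igfbp4, Igfbp6 and Igfbp7 higher and Igfbp5 lower, where 11.9% of 6142 genes were higher and 14.7% lower, and it compares a control cluster (D10) with an induced one (D14). In the dermal papilla-like class, D6 and this class more genes passed a 2-fold difference than in the other classes counted. They have few cells, as do the Langerhans or dendritic-like cells (28 and 26). The reason for their larger shares was not tested.

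Igf1 (chr10:87858265-87937042, plus strand) encodes the ligand. In fibroblast-like cells its level was 115 CPM in the control and 339.8 CPM in the induced library, 2.97-fold higher (log2 ratio 1.57, 95% interval 1.38 to 1.76). Its level was uneven within that class. Cluster D9 held 82 control and 73 induced cells, 15.7% and 35.4% of the class, and supplied 87.6% and 96.1% of the class's Igf1 UMIs. Within D9 the level was 686 and 859 CPM (log2 ratio 0.32, interval 0.13 to 0.52). In the other large shared clusters it was 31.3 and 14.7 CPM (D1) and 8.79 and 14.6 CPM (D5). The difference over the class was larger than that within the cluster where most of the transcript lay, and the share of D9 cells moved with it, which was not tested further. Cluster D4, with 183 control and 9 induced cells, was nearly absent from the induced library, and without it the log2 ratio over the class was 0.91.

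Dermal papilla-like cells, the signalling cells at the base of the hair follicle, had 160.0 CPM of Igf1 in control cells and 326 CPM in induced cells. That class, D7, comprised 43 and 86 cells. The log2 ratio was 1.03 (0.46 to 1.61), but it was -0.80 when the cells were clustered more finely, so its direction was not stable. The median depth of this class was 5844 UMIs for control cells and 1793 for induced cells, with medians of 6.41% and 8.69% mitochondrial UMIs. Malat1, a nuclear RNA, stood at 39727 and 75284 CPM there. These values move with every difference given for dermal papilla-like cells, and their part in it was not tested. The counting intervals of the dermal papilla-like and fibroblast-like levels overlapped in both libraries, so these classes could not be ordered. Epithelial cells had 9 and 71 Igf1 UMIs in all (0.117 and 0.722 CPM). Melanocyte-like cells had none in either library.

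Igfbp2 (chr1:72824503-72852474, plus strand) encodes a secreted binding protein that can also attach to cell-surface integrins. Most of it lay in basal epidermis-like cells, the dividing lower layer of the epidermis, at 295 CPM in the control and 220.4 CPM in the induced library (log2 ratio -0.42). These cells supplied 58.2% and 80.5% of its UMIs. The control basal cells lay in clusters E4, E12 and E21 and the induced ones in E23, E28 and E33, so the value compares different clusters. In spinous epidermis-like cells, the layer above, the level was 69.6 and 5.94 CPM, 11.7-fold lower (log2 ratio -3.55, -3.93 to -3.19), again between a control cluster (E18) and an induced one (E30). Over all epithelial cells the levels were close, at 72.0 and 76.9 CPM (log2 ratio 0.09, 0.05 to 0.14).

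Outside the epithelium Igfbp2 was highest in cells with smooth muscle or dermal sheath markers in both libraries, at 827 CPM in control cluster D10 and 615 CPM in induced cluster D14. In fibroblast-like cells it stood at 95.8 and 82.7 CPM (log2 ratio -0.21, -0.55 to 0.11), an interval that includes no difference. The clusters of that class went opposite ways. In D5 the level was 329.6 CPM in the control and 112 CPM in the induced library (log2 ratio -1.56), and in D1 it was 82.5 and 171 CPM (1.06).

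Igfbp3 (chr11:7206086-7213923, minus strand) encodes the main carrier of IGF in blood. In the control library it was highest in endothelial-like cells, at 1188 CPM, and the induced level there was 1277 CPM (log2 ratio 0.10, -0.02 to 0.23). With each cell at equal weight the endothelial log2 ratio was -0.27, and it was 0.61 with doublets kept and 0.75 under the stricter cell filter. Dermal papilla-like cells stood at 417 and 3275 CPM, 7.86-fold higher (log2 ratio 2.97, 2.69 to 3.28), which made them the highest named class of the induced library. With finer clustering that log2 ratio was 1.62. Cluster D6 stood at 35.9 and 783 CPM, 21.8-fold higher (4.45, 3.84 to 5.11). In D6 the median depth was 12421 and 5281.5 UMIs, Malat1 stood at 15307 and 26448 CPM and Neat1, another nuclear RNA, at 74.7 and 1056 CPM, and their part in the differences given for D6 was not tested. The class with smooth muscle or dermal sheath markers had 28.1 and 452 CPM (4.01, 2.92 to 5.35), between clusters D10 and D14. Schwann-like cells went the other way, with 47.1 CPM in the control and no UMI in the induced library.

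Fibroblast-like cells had 18.3 CPM of Igfbp3 in the control and 63.2 CPM in the induced library (log2 ratio 1.78, 1.32 to 2.24). All 3 shared clusters lay on that side, with 42.8 and 93.02 CPM in D1, 3.52 and 24.4 CPM in D5, and 18.7 and 93.6 CPM in D9. Basal epidermis-like cells went the other way, from 53.9 CPM in the control to 14.9 CPM in the induced library (log2 ratio -1.85, -2.03 to -1.67), and with coarser clustering the log2 ratio was -3.23. The basal clusters differ between the libraries, as given for Igfbp2. The share of dermal papilla-like cells with at least 1 Igfbp3 UMI, after thinning to 2000 UMIs, was 46.5% (31.2% to 62.3%) of 43 control cells and 71.8% (55.1% to 85.0%) of the 39 induced cells of that depth. The other induced cells of the class were shallower and were left out, as were 56 control and 353 induced cells over all classes. Those intervals overlap. Before thinning the shares were 69.8% of 43 and 77.9% of 86 cells.

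**Figure D3:**
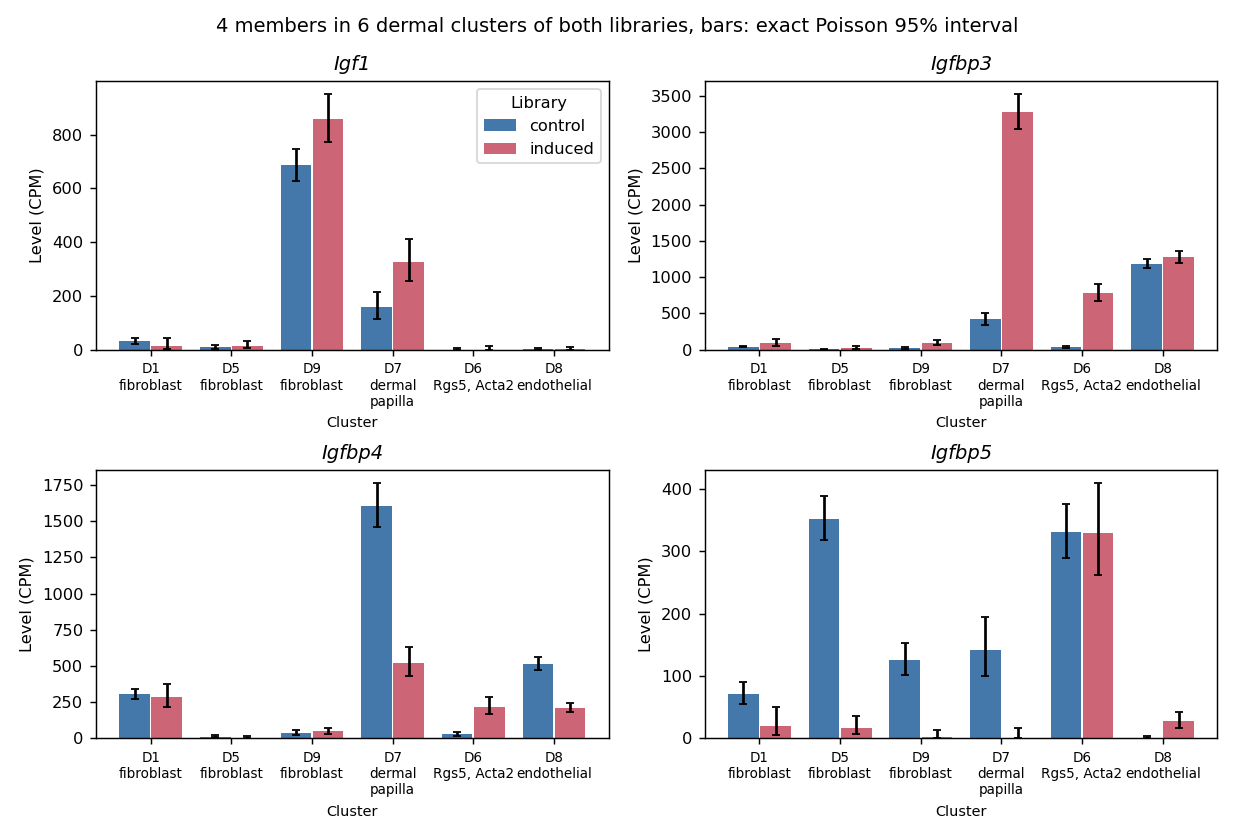
Levels of 4 of the genes, in CPM, in 6 dermal clusters of the control and induced libraries. The lines on the bars show exact 95% Poisson intervals, which cover counting error only. Igfbp3 is higher in the induced library in D6 (35.9 and 783 CPM), while Igfbp5 stands at 330.3 and 330.1 CPM there.

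Igfbp4 (chr11:99041244-99054392, plus strand) encodes a binding protein known chiefly as an inhibitor of IGF action that the protease PAPP-A cleaves. Over all epithelial cells its level was 189 CPM in the control and 47.0 CPM in the induced library, 4.01-fold lower (log2 ratio -2.004, -2.05 to -1.96). The share of epithelial cells with a UMI, thinned to 2000 UMIs, was 30.8% (29.4% to 32.3%) and 10.3% (9.34% to 11.3%). Its match to miR-200a lies in the 3′ UTR shown above.

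The epithelial difference in Igfbp4 went with a difference in which clusters were present. Several control clusters with few or no induced cells had high levels: E7 498 CPM, E15 445 CPM, E0 281 CPM, and the sebaceous gland-like cells of E5 343.5 CPM over 216 cells. The summed level of 11 sebaceous gland markers in epithelial cells was 3338 CPM in the control and 406 CPM in the induced library, with all 11 above 0 in both. Classes present in both libraries varied. The levels were 81.2 and 32.2 CPM in basal epidermis-like cells (log2 ratio -1.33), 35.7 and 14.9 CPM in upper follicle-like cells, and 200.1 and 143 CPM in outer root sheath-like cells (-0.48, -0.62 to -0.35). The basal cells lay in different clusters in each library. Of the upper follicle-like clusters, E8 held 152 control and 7 induced cells, and E14 held 11 and 166. Upper follicle-like cluster E11 (98 and 127 cells) stood at 18.4 and 17.6 CPM (-0.07, -0.56 to 0.42). E14 had 7.69 and 12.1 CPM (0.66, -0.55 to 2.16). Of the outer root sheath-like cells, 228 of 268 induced but only 27 of 1339 control cells lay in cluster E25, so that value mostly compares different clusters. Spinous epidermis-like cells had 25.95 and 3.75 CPM (-2.79, -3.29 to -2.32), between clusters E18 and E30, and the unnamed epithelial clusters had a log2 ratio of -2.22. The outer root sheath value was -1.70 with doublets kept, -1.33 with coarser and -1.30 with finer clustering, and the basal value was -0.74 under the stricter filter. In the 20 clusters with at least 10 cells of each library, the interval for Igfbp4 lay above 0 in 2 and below 0 in 6. It lay across 0 in 12. These clusters include non-epithelial ones, and over both kinds the median log2 ratio was -0.08. The interval lay above 0 in E3 and in the non-epithelial D6. It lay below 0 in E1, E19 and E25 and in the non-epithelial D0, D7 and D8. The epithelial clusters among them had E3 and E25 at their ends. E3 (326 control cells, 19 induced cells) stood at 389.5 and 802 CPM (log2 ratio 1.04, 0.79 to 1.28). E25 had 549 and 103 CPM (-2.41, -2.73 to -2.08). Which part of the epithelial value comes from the mix of clusters was not tested.

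In the dermis Igfbp4 was highest in dermal papilla-like cells of the control library. These stood at 1607 CPM in the control and 522 CPM in the induced library (log2 ratio -1.62, -1.94 to -1.32; -0.83 with finer clustering). Endothelial-like cells stood at 515 and 211 CPM (-1.29, -1.55 to -1.03). With likely doublets kept the endothelial log2 ratio was 0.14. Fibroblast-like cells stood at 130.3 and 79.2 CPM (-0.72, -1.06 to -0.40), but the log2 ratio was 2.76 when genes were centred within each library before clustering. The fibroblast-like class leaves out D13, which held 309 induced Igfbp4 UMIs (481 CPM) against 89 in the class. Cluster D6 went the other way, with 28.7 and 220.1 CPM (2.94). The highest level of the induced library was in cluster D14, 24 cells with smooth muscle or dermal sheath markers, at 4125 CPM. The control cells of that class, in D10, had 24.4 CPM.

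Igfbp5 (chr1:72857932-72874884, minus strand) encodes a binding protein that attaches to extracellular matrix. It lies next to Igfbp2 on chromosome 1. In fibroblast-like cells its level was 169 CPM in the control and 16.0 CPM in the induced library, 10.5-fold lower (log2 ratio -3.40, -4.16 to -2.73). That value leaves out cluster D13 (3 control and 70 induced cells), which had fibroblast markers but no class name. D13 held 90 induced Igfbp5 UMIs (140 CPM), against 18 in the fibroblast-like class. Every shared fibroblast-like cluster of at least 30 cells per library was on the same side. D1 had 71.0 and 19.6 CPM, D5 had 352 and 17.1 CPM (log2 ratio -4.37), and D9 had 125 and 2.34 CPM (-5.74). Igf1 and Igfbp5 therefore stood on opposite sides within D9, where Igf1 was slightly higher in the induced library.

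Dermal papilla-like cells had 38 Igfbp5 UMIs in the control library (141 CPM) and none in the induced library, at least 10.1-fold lower against a floor of 3 counts per library. Cluster D6 had similar levels, 330.3 and 330.1 CPM (log2 ratio 0.00, -0.38 to 0.37). Schwann-like cells had 123 and 125 CPM (0.03, -0.91 to 0.90), from 39 UMIs in 31 control cells and 16 UMIs in 18 induced cells. Both intervals lie above the fibroblast-like value. Endothelial-like cells had no Igfbp5 UMI among control cells and 20 among induced cells (27.2 CPM), which came from 3.33% of 60 cells. Control cluster D10, with smooth muscle or dermal sheath markers, had the highest level of all at 1801 CPM.

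In the epithelium Igfbp5 stood at 17.3 CPM in the control and 5.39 CPM in the induced library (log2 ratio -1.68, -1.83 to -1.53). Outer root sheath-like cells, the outer wall of the follicle, had 51.2 and 29.9 CPM, and upper follicle-like cells had 15.4 and 27.6 CPM (log2 ratio 0.84, 0.53 to 1.16). The clusters spread widely. E25 had 421 and 14.8 CPM (-4.83), E1 had 126 and 18.7 CPM, E16 had 10.4 and 51.3 CPM (2.31) and E3 had 82.1 and 305 CPM.

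Igfbp6 (chr15:102144362-102149511, plus strand) encodes a binding protein that prefers IGF2, and it is the gene with the miR-200b match. It was the least abundant of the 8 by UMIs. Epithelial cells stood at 1.76 and 2.21 CPM (log2 ratio 0.33, 0.01 to 0.65). Non-epithelial cells had 3.995 CPM in the control and 43.9 CPM in the induced library (3.46, 2.96 to 3.996). Cluster D13, which is led by Lpl, Apod and Fabp4 and held 3 control and 70 induced cells, supplied 239 UMIs, 50.4% of all Igfbp6 UMIs of the induced library, at 372 CPM. The 3 control cells of D13 held 29 of the 37 Igfbp6 UMIs of control non-epithelial cells, at 889 CPM (596 to 1277). Dermal papilla-like cells and D6 had none in either library. In both libraries most non-epithelial Igfbp6 UMIs thus lay in D13, whose number of cells differed between the libraries.

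Igfbp7 (chr5:77349240-77408041, minus strand) encodes a secreted vessel-wall protein that binds IGF weakly compared with the other binding proteins. Endothelial-like cells were its highest class in both libraries, at 4754 CPM in the control and 3875 CPM in the induced library (log2 ratio -0.295, -0.36 to -0.23). After thinning to 2000 UMIs, 98.3% (91.1% to 99.96%) and 96.4% (87.5% to 99.6%) of these cells had a UMI. In melanocyte-like cells, which serve as a measure of free RNA, the shares were 0 of 79 control cells (a share of up to 3.80% is allowed by a count of 0) and 0.43% of induced cells. The median depths were 14143.5 and 7532.5 UMIs in endothelial-like cells and 10156 and 7522.5 UMIs in melanocyte-like cells. Cluster D6 had 1211 and 2739 CPM (log2 ratio 1.18, 1.03 to 1.33), Schwann-like cells 324 and 524 CPM, and fibroblast-like cells 77.5 and 98.7 CPM (0.35, 0.03 to 0.66). The class with smooth muscle or dermal sheath markers had 92.3 and 3389.6 CPM, 36.7-fold higher, between D10 and D14. Without cluster D4 the fibroblast log2 ratio was -0.29. Cluster D13, which the fibroblast-like class leaves out, held 1329 induced Igfbp7 UMIs (2068 CPM) against 111 in that class.

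Over all epithelial cells Igfbp7 stood at 19.4 and 36.4 CPM, 1.88-fold higher in the induced library (log2 ratio 0.91). Outer root sheath-like cells had 55.2 and 105 CPM (0.93; 1.66 with doublets kept, 1.54 with coarser and 1.49 with finer clustering), again mostly a comparison of E25 with other clusters. Shared clusters differed from each other. E11 had 3.07 and 34.4 CPM (3.48, 2.66 to 4.43), E17 had 3.89 and 83.4 CPM (4.42), and E25, an outer root sheath-like cluster, had 292 and 92.4 CPM (-1.66).

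**Figure D4:**
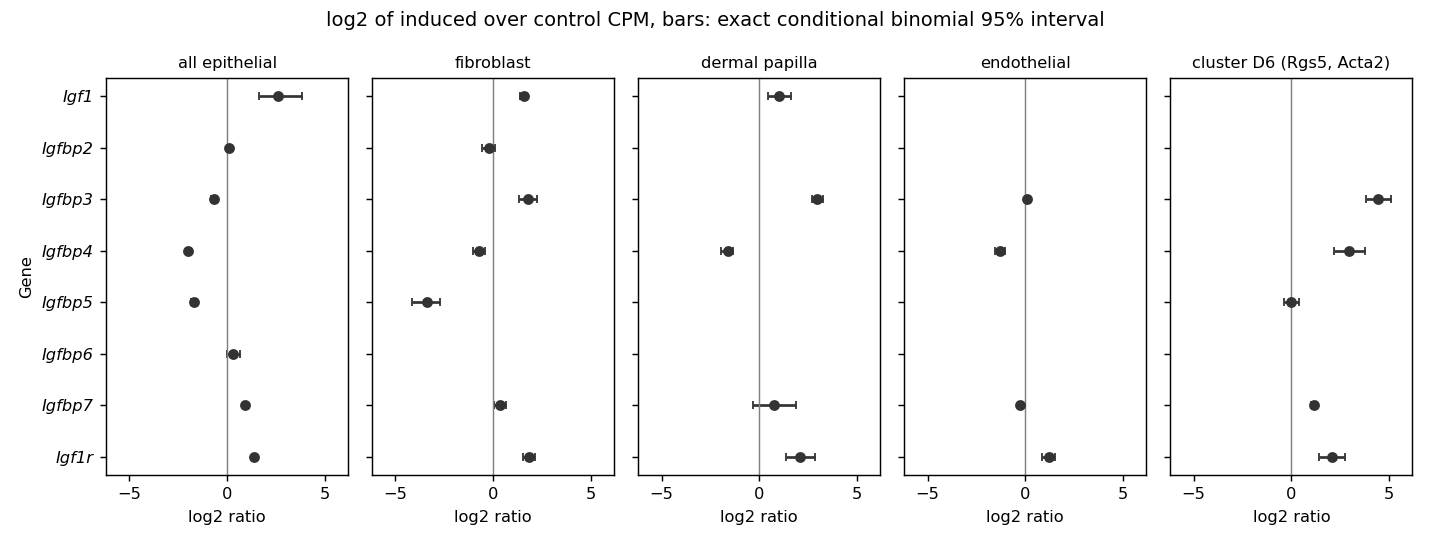
Log2 ratio of induced over control CPM for each gene, with 95% intervals for counting error. Panels show epithelial, fibroblast-like, dermal papilla-like and endothelial-like cells and cluster D6. Ratios that rest on under 20 UMIs or on a level of 0 are left out. Igf1r lies above 0 in epithelial (1.40), fibroblast-like (1.84) and endothelial-like (1.19) cells, while Igfbp4 lies on both sides.

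Igf1r (chr7:67952827-68233668, plus strand, a span of 280.8 kb) encodes the receptor. Over all epithelial cells its level was 32.6 CPM in the control and 86.0 CPM in the induced library, 2.64-fold higher (log2 ratio 1.40, 1.34 to 1.46). Outer root sheath-like cells had 51.7 and 187 CPM (1.86, 1.71 to 1.995), basal epidermis-like cells 33.4 and 86.1 CPM (1.37), upper follicle-like cells 28.0 and 70.2 CPM, and spinous epidermis-like cells 10.6 and 25.5 CPM. Except for the upper follicle-like cluster E11 (98 control and 127 induced cells), these classes lay mostly in different clusters in each library, as given above. The higher level extended to dermal cells. Fibroblast-like cells had 37.1 and 133 CPM, 3.58-fold higher (1.84, 1.52 to 2.16), and endothelial-like cells had 113 and 259 CPM (1.19, 0.86 to 1.53). Dermal papilla-like cells had 78.1 and 335 CPM, 4.29-fold higher (2.10, 1.38 to 2.88), and cluster D6 had 47.4 and 199.7 CPM (2.08, 1.41 to 2.76).

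In other classes the interval reached 0. Melanocyte-like cells, the pigment cells, stood at 58.5 and 73.8 CPM of Igf1r (log2 ratio 0.34, -0.12 to 0.81), an interval that includes 0 and lies below the epithelial value. Langerhans or dendritic-like cells stood at 10.9 and 16.7 CPM. Cells with smooth muscle or dermal sheath markers stood at 181 and 114 CPM (-0.67, -1.38 to 0.03), a comparison of different clusters.

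Clusters that held cells of both libraries had 1 direction. In the 20 clusters with at least 10 cells of each library, epithelial and dermal, Igf1r was higher in the induced library in 20. The interval lay above 0 in 14 and below 0 in none. The finite log2 ratios ran from 0.41 to 2.10 with a median of 1.26, and cluster E19 had no control UMI. The 20 differences kept their direction when set against the median gene of the cluster. Under the other filter, doublet and clustering settings 16 of 17 to 25 of 25 such clusters were higher.

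**Figure D5:**
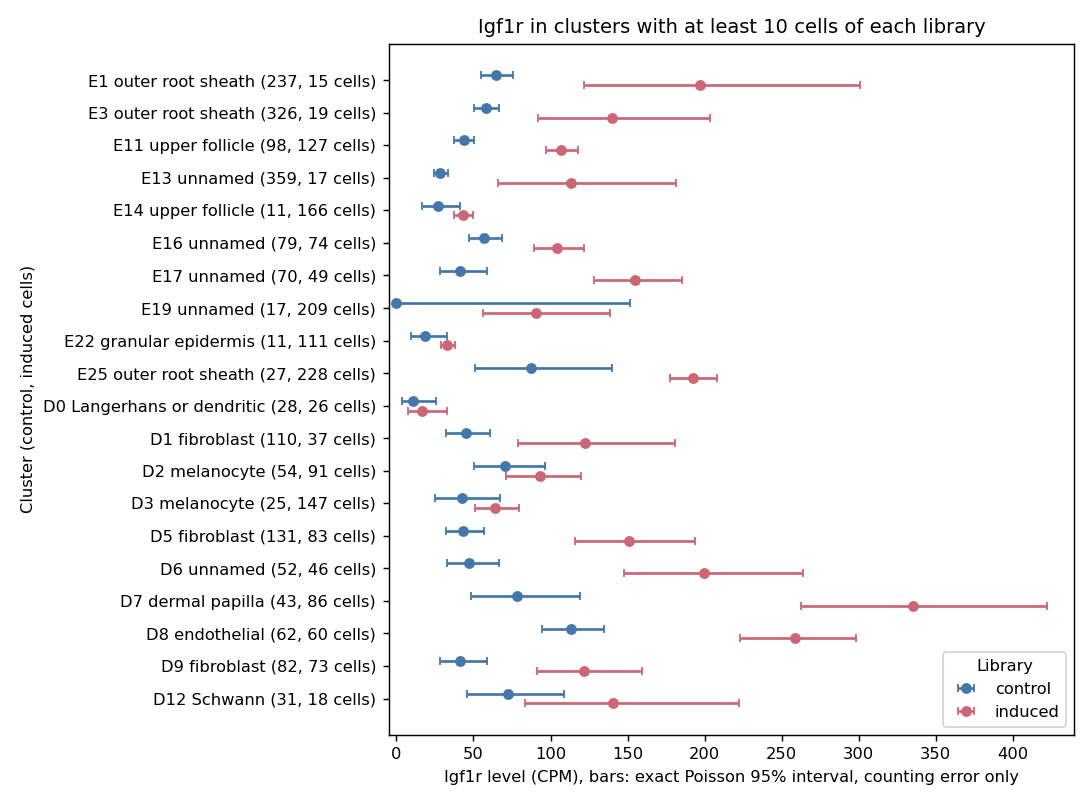
Igf1r level in CPM in the control and induced libraries for each of the 20 clusters with at least 10 cells of both. The lines on the points show exact Poisson intervals, which cover counting error only. The induced level is the higher of the pair in 20 of 20 clusters.

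The share of epithelial cells with an Igf1r UMI, thinned to 2000 UMIs per cell, was 6.73% (5.96% to 7.56%) in the control and 17.8% (16.6% to 19.0%) in the induced library. Unthinned it was 39.2% and 73.3%, at median depths of 16063 and 21125.5 UMIs. In fibroblast-like cells the thinned shares were 7.54% and 17.7%. Langerhans or dendritic-like cells, the class with a low level, had 0 of 26 and 3.85% of 26 cells. Barcodes under 1000 UMIs, which were not kept as cells, had 33.8 and 103 CPM of Igf1r (log2 ratio 1.60), so RNA outside kept cells differed in the same direction. What share of the dermal Igf1r UMIs is free RNA was not tested. The summed level of pan-epithelial markers in fibroblast-like cells was 572.5 CPM in the control and 1304 CPM in the induced library, and in epithelial cells it was 29829 and 29971 CPM. Malat1 stood at 18800.2 and 23974 CPM in fibroblast-like cells, at 12054 and 15504 CPM in endothelial-like cells and at 8600.4 and 8820.4 CPM in epithelial cells. Neat1 stood at 319 and 787 CPM in fibroblast-like cells, at 237 and 1336 CPM in endothelial-like cells, at 391 and 1025 CPM in dermal papilla-like cells, and at 1312 and 1030.3 CPM in epithelial cells. The part of these values in the dermal Igf1r levels was not tested.

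Genes of a like build were set beside Igf1r, which has a long 3′ UTR and a long span. In fibroblast-like cells the median log2 ratio was 0.04 over all genes, 0.26 over those with a 3′ UTR of at least 5000 bases and 0.22 over those that span at least 200 kb. In endothelial-like cells these medians were -0.06, 0.27 and 0.35, and in epithelial cells -0.10, -0.16 and -0.09. The share of genes counted as higher was 3.35% of all genes in fibroblast-like cells, 3.56% of those with such a 3′ UTR, 6.64% of those of such a span and 10.2% of the 49 with both. In endothelial-like cells these shares were 4.62%, 9.12%, 10.9% and 9.76%, and in epithelial cells 2.24%, 1.82%, 2.69% and 3.03%. The part of gene build in the Igf1r ratios was not tested.

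The rest of the pathway was followed through a list of 39 genes for ligands, receptors, proteases and signal transduction. In epithelial cells 14 had the level to be counted. Of these 2 were higher, 1 lower and 11 neither, where 2.24% of all genes were higher and 4.23% lower, and the median log2 ratio was -0.32 against -0.10 over all genes. The higher ones were Htra1, a secreted protease that can cut binding proteins, at 76.0 and 167 CPM (1.14), and Igf2bp2, an RNA-binding protein, at 12.1 and 45.6 CPM (1.91). The lower one was Foxo1, a transcription factor that AKT holds out of the nucleus, at 47.6 and 17.8 CPM (-1.42). In basal epidermis-like cells, where 1.98% of genes were higher and 3.63% lower, Igf2bp2 was higher, and Foxo1 and Pik3r1, a regulatory subunit of PI3-kinase, were lower (33.8 and 6.60 CPM for Foxo1, 59.99 and 14.1 CPM for Pik3r1).

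In fibroblast-like cells 21 of the 39 were counted and 2 were higher, where 3.35% of all genes were higher and 2.38% lower. Pappa, whose product cleaves IGFBP4, stood at 56.6 CPM in the control and 165 CPM in the induced library (log2 ratio 1.54, 1.27 to 1.81). Pappa2, whose product cleaves IGFBP3 and IGFBP5, stood at 8.59 and 36.5 CPM (2.09, 1.44 to 2.73). None was lower, and the list's median was 0.01 against 0.04 for all genes. The insulin receptor gene Insr stood at 24.6 and 44.5 CPM (0.86), short of the 2-fold limit, and Igf2r, which clears IGF2, at 44.1 and 29.4 CPM.

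Endothelial-like cells had 20 of the 39 counted, where 4.62% of all genes were higher and 8.12% lower. Insr was higher at 38.05 and 119.8 CPM (log2 ratio 1.65), and so was Stc1, whose product inhibits PAPP-A, at 109.7 and 331 CPM (1.59). Htra1 was lower there, at 59.3 and 10.9 CPM, the side opposite to that over all epithelial cells. In spinous epidermis-like cells it was also lower, at 55.4 and 6.11 CPM (-3.18), again between different clusters. In melanocyte-like cells 18 were counted and none differed by 2-fold, where only 2.1% of all genes were higher and 1.83% lower. The second ligand, Igf2, stood at 211 and 259 CPM in endothelial-like cells, at 44.7 and 30.2 CPM in fibroblast-like cells and at 5.06 and 1.97 CPM in epithelial cells.

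The genes with the pattern most similar to a member's were taken over 19 combinations of class and library, from Pearson's r of log2(CPM + 5) among 12470 genes. The points share libraries, depth and cell types, and r is a description. Igf1 ran with Pdgfra, a PDGF receptor and one of the markers used to name fibroblast-like cells (r = 0.987), and Cped1 (0.985). Igfbp7 ran with the basement membrane collagens Col4a2 (0.963) and Col4a1 (0.962). Igfbp6 ran with C1qb (0.965) and Fmo2 (0.904), on few UMIs. Among these combinations Igfbp6 stood at 372 CPM in induced D13 and next at 4.43 CPM in induced basal epidermis-like cells. Its r values thus rest mainly on D13. Igfbp3 ran with Trim47 (0.915) and Plcb1 (0.912), and Igf1r with Zfp945 (0.901) and Wac (0.900). The closest genes were less alike for Igfbp5 (Cryab, 0.875) and Igfbp4 (Hsf1, 0.846).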

How the data were processed

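The deposited values were raw UMI counts of each gene in each barcode, for which the submitters' processing notes name Cell Ranger 6.0.0 and mm10. The labels name the 10x 3′ v3.1 chemistry, so reads come from the 3′ ends of RNA. The members and lists were chosen with earlier results of these data known. Named genes are the 8 members, genes of the pathway list past a 2-fold difference or needed beside a member, and the closest genes by correlation (those of Igfbp2 are not reported here).

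Kept barcodes had at least 1000 UMIs, 500 genes and under 15% mitochondrial UMIs. Scrublet's own threshold marked 3 and 1 barcodes, so the 7% with the highest scores per library were removed. Both libraries were clustered together (2000 variable genes, 30 components, 15 neighbours, Leiden resolution 1.0, then 2.0 within epithelial and 1.0 within other clusters). Clusters above 3000 CPM of keratins were epithelial, and a name needed at least 3 markers of a list detected in at least 25% of cells. That keratin level and the naming limits were set after the data were seen, and class names can differ from the study's.

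UMIs were summed per class and library as CPM. Intervals are exact 95% Poisson, conditional binomial and Clopper-Pearson intervals, and cover counting error only. The ratio step was tested on simulated data. Genes were counted from a mean of 20 CPM on, as log2(CPM + 5). Alternatives were doublets kept, a stricter filter, equal weight per cell, scaling to the median gene, other clusterings, genes centred within a library, and shares without thinning. Coarser (1.0 and 0.5) and finer (3.0 and 2.0) second clusterings, and leaving out shallow clusters or cluster D4, were chosen after seeing the data. Tools were Python 3.11.15, scanpy 1.11.5, igraph 0.11.9, numpy 2.4.6, scipy 1.17.1 and pandas 2.3.3. The 3′ UTRs came from GENCODE vM21 (GRCm38).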

Additional observations from a re-analysis of the deposited data

Results flagged for a closer look

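In 4 of the binding proteins, clusters that held cells of both libraries and at least 100 UMIs of the gene differed in opposite directions, and the difference between the clusters was not tested. For Igfbp2 the log2 ratio of induced over control was 1.06 in fibroblast-like cluster D1 and -1.56 in fibroblast-like cluster D5. For Igfbp4 it was 1.04 in epithelial cluster E3 and -2.41 in E25. For Igfbp5 it was 2.31 in E16 and -4.83 in E25, and for Igfbp7 it was 3.48 in E11 and -1.66 in E25. Cluster E25 held 27 control and 228 induced cells, and E3 held 326 control and 19 induced cells, so the control levels of E25 and the induced levels of E3 rest on few cells. Igfbp3 also had clusters on both sides, but those with lower levels, such as E25 with 3 control and 2 induced UMIs, had fewer UMIs.

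Barcodes under 1000 UMIs, which no comparison of cell classes uses, numbered 3291 in the control and 2539 in the induced library. In them Igfbp3 stood at 35.6 and 96.0 CPM (log2 ratio 1.43, interval 1.04 to 1.84) and Igf1r had a log2 ratio of 1.60 (1.21 to 2.01). Igf1 stood at 5.85 and 13.7 CPM there, Igfbp4 at 198 and 66.4 CPM, and Igfbp5 at 29.3 and 15.9 CPM. Igfbp2 had 41.4 and 32.4 CPM, Igfbp6 4.50 and 4.94 CPM, and Igfbp7 108 and 80.7 CPM. The part of free RNA in the class levels of these genes was not tested.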

How the results depend on the processing

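No paired analysis was possible because each genotype is 1 library. First clusterings at resolution 0.5 or 2.0 gave the same tables as 1.0 and are not counted. Of the other 247 values recomputed under an alternative, 179 stayed within their counting interval or, for counts, within 1.5 times, 64 moved further and 4 took the other sign from a value whose interval had excluded 0. The 4 were the log2 ratios of Igfbp4 in fibroblast-like cells (2.76 with genes centred within a library), Igfbp7 in fibroblast-like cells (-0.29 without cluster D4), Igf1 in dermal papilla-like cells (-0.80 with second clusterings at resolutions 3.0 and 2.0) and Igfbp4 in endothelial-like cells (0.14 with doublets kept). Counting values whose interval held 0 from the start, 8 log2 ratios took the other sign. In epithelial cells, equal weight per cell gave 0.020 for Igfbp2, -0.10 for Igfbp3, -1.76 for Igfbp4 and -1.95 for Igfbp5. Relative to the median gene the values were 0.20 for Igfbp2, -1.90 for Igfbp4, 1.01 for Igfbp7 and 1.505 for Igf1r. Igfbp3 was -0.20 with doublets kept and -0.93 under the stricter filter. In fibroblast-like cells, equal weight gave 1.76 for Igf1 and 0.014 for Igfbp7, and leaving out D4 gave 0.91 for Igf1 and -0.85 for Igfbp2. Genes centred within a library gave 0.82 for Igfbp2, 2.90 for Igfbp3 and 3.25 for Igfbp7. Igfbp4 was -1.08 with second clusterings at 1.0 and 0.5, Igfbp5 was -4.31 under the stricter filter, and Igfbp7 was 1.45 with doublets kept and 1.33 with second clusterings at 3.0 and 2.0. The cause of these moves was not tested. Igf1r ran from 1.37 to 1.51 in epithelial and from 1.59 to 2.02 in fibroblast-like cells. Shares of cells with a UMI without thinning were 39.2% and 73.3% (Igf1r, epithelial), 28.4% and 48.5% (Igf1r, fibroblast-like), 68.3% and 43.4% (Igfbp4, epithelial) and 69.8% (Igfbp3, control dermal papilla-like). With doublets kept, epithelial cells supplied 3.40% of control Igf1 UMIs, 22.7% of induced Igfbp3, 87.6% and 68.8% of Igfbp4, 42.2% of control Igfbp5 and 38.8% of induced Igfbp7 UMIs. The highest named class was the same for 14 of 16 pairs of gene and library with doublets kept, and for 14 with equal weight. With 1 library per genotype, a difference between genotypes and one between libraries cannot be told apart.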

Other observations

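Cells of induced epithelial cluster E29, which numbered 67 and had a median of 2100 UMIs, held 8 Igf1 UMIs (46.7 CPM), in 4.48% of them. The lymphatic endothelial-like cells were too few to compare (1 control and 7 induced), and the induced ones held 35 Igfbp5 UMIs (472 CPM).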
